A study of Mus musculus with 9 samples.

Results

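The insulin-like growth factor (IGF) family was followed in bulk RNA sequencing of BALB/c mouse brain, in tissue labelled as the anterior paraventricular thalamic nucleus (aPVT). The members were 10 genes chosen by name, the ligands Igf1 and Igf2, the receptors Igf1r and Igf2r, and the binding proteins Igfbp2, Igfbp3, Igfbp4, Igfbp5, Igfbp6 and Igfbp7. They were 10 of 18956 gene symbols in the deposited count table, and all 10 passed the filter on low counts that left 18194 genes tested. The choice names the genes and sets no threshold on a value, but it was made with results of these same 9 libraries in view. The differences and p-values of the members are therefore a description of these libraries and not independent evidence.

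The 9 libraries formed 3 groups of 3. Non-stressed mice received saline, a second group went through 5 days of social defeat (smSDS in the labels) and received saline, and a further group went through the same defeat and received (2S,6S)-HNK (SHNK below), a hydroxynorketamine formed when ketamine is broken down. In social defeat, an aggressive mouse attacks the test mouse. All groups shared the strain. Dose, treatment time, age, sex and any pooling of animals are not stated in the labels. The labels do not state that replicates were different animals, so p-values measure the spread between these libraries, which may be technical. There was no SHNK group without stress, so an effect of SHNK in unstressed mice cannot be read from this design.

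IGF1 and IGF2 are secreted peptides related to insulin. Both signal through the IGF1 receptor, a tyrosine kinase that acts on the PI3K-AKT and MAP kinase pathways, whereas the IGF2 receptor, which is also the cation-independent mannose 6-phosphate receptor, takes IGF2 into the cell for breakdown. The IGF binding proteins hold most of the peptide outside cells and thereby limit or prolong its action. In the adult brain, IGF1 is made by some neurons and glia and also arrives from the blood, and Igf2 is made chiefly by the choroid plexus, the meninges and vessel-associated cells.

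Igf1 was the member that stood apart after SHNK. It was higher in the 3 SHNK libraries than in the 3 stressed saline libraries, by 0.82 ± 0.14 on the log2 scale (standard error), or 1.76-fold, and it was the only one of the 10 members past the threshold in any of the 3 comparisons. Igf2, the other ligand, was instead highest on average in stressed saline, but none of its differences passed. The receptors and the 6 binding proteins differed by at most 0.59 on the log2 scale in any comparison, and none passed.

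Total counts ran from 32307869 to 51569143 per library. Levels below are CPM, counts scaled to a common library size, with the TMM factors of edgeR. Markers of thalamic neurons were read beside the tissue label, which they cannot settle, since they are not particular to aPVT. Calb2, a calcium-binding protein of midline thalamic neurons, ran from 1685 to 2407 CPM over the libraries, and Slc17a6, a vesicular glutamate transporter of thalamic neurons, from 483 to 711 CPM. Markers of neighbouring structures differed between the groups. The summed CPM of 20 genes of ependyma and motile cilia was 136 to 165 in non-stressed saline, 255 to 383 in stressed saline and 150 to 220 in SHNK, and 11 of the 20 rose under stress and 10 fell with SHNK. Of 13 habenula genes, 9 rose under stress (0 fell), and with SHNK against stressed saline 11 fell and 1 rose. In counts of marker genes, here and below, a gene rose or fell if its edgeR adjusted p was under 0.05. Of all tested genes, 1.15% were called higher and 0.0165% lower under stress. With SHNK against stressed saline, 2.45% were called higher and 3.96% lower. In bulk tissue, a change in the number of cells of a type and a change in RNA per cell cannot be told apart.

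Levels can be compared between genes only per length, here as CPM per kilobase of the longest GENCODE transcript (mean ± SD over the 9 libraries). Igfbp7, a secreted protein of vessels with low affinity for IGFs, was the highest at 59.7 ± 8.17 CPM per kb, and Igfbp2, a binding protein made in the brain by astrocytes and the choroid plexus, was next at 33.9 ± 4.66 CPM per kb. Igfbp5 had 11.9 ± 1.03 CPM per kb and Igfbp3, the main carrier of IGFs in the blood, 8.99 ± 0.660 CPM per kb. Igfbp7 and Igfbp2 did not overlap with each other or with the next gene in any library, while the ranges of Igfbp5 and Igfbp3 overlapped.

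The remaining members were lower. Igfbp6, which binds IGF2 with preference, had 2.26 ± 0.866 CPM per kb and Igfbp4 1.74 ± 0.163 CPM per kb. Igf1 had 1.56 ± 0.422 CPM per kb and Igf1r 1.26 ± 0.0962 CPM per kb. Igf2r, at 0.724 ± 0.111 CPM per kb, and Igf2, at 0.636 ± 0.158 CPM per kb, were the lowest. From Igfbp6 down to Igf1r the ranges of neighbours overlapped, as did those of Igf2r and Igf2. The first 4 places were the same with the union of exons or the median transcript as the length, but with the median transcript Igfbp6 moved from place 5 to place 10 and Igf2r from place 9 to place 7, so the order below place 4 depends on which transcripts these cells use.

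**Figure D1:**
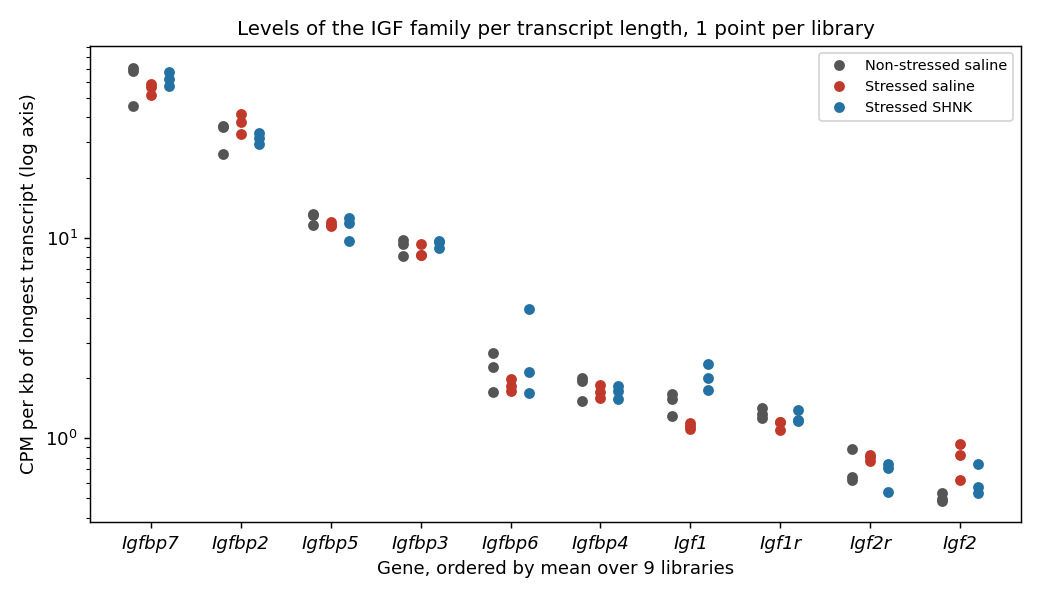
CPM per kilobase of the longest transcript (log axis) for each member, ordered by the mean over 9 libraries, with 1 point per library coloured by group. Igfbp7 and Igfbp2 lie above all other members in every library, and Igf1, Igf1r, Igf2r and Igf2 lie at the low end.

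The ligand Igf1 (chromosome 10, 87858265 to 87937042, plus strand, GRCm38) measured 9.12, 11.1 and 11.7 CPM in non-stressed saline replicates 1 to 3. It was 8.34, 7.86 and 8.11 CPM in stressed saline and 12.3, 14.0 and 16.5 CPM in SHNK. The group ranges did not overlap in any of the 3 pairs. Stressed saline was the lowest group and also the tightest, and SHNK was the highest, with a mean of 14.3 ± 2.11 CPM (SD, n = 3) against 8.10 ± 0.241 CPM in stressed saline and 10.6 ± 1.35 CPM in non-stressed saline.

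Against stressed saline, Igf1 in SHNK passed the edgeR quasi-likelihood test with Benjamini-Hochberg adjustment over all tested genes (adjusted p = 0.0059). With each of the 9 libraries left out in turn it still passed, with log2 fold changes from 0.70 to 0.92 and edgeR adjusted p from 0.00441 to 0.0450, and in the 8 other fits tried (adjusted p from 4.95e-06 to 0.00833). Stressed saline against non-stressed saline gave -0.39 ± 0.14 on the log2 scale, which did not pass (edgeR adjusted p = 0.308, unadjusted p = 0.0148). SHNK against non-stressed saline gave 0.43 ± 0.14, which did not pass in edgeR (adjusted p = 0.131) and passed in DESeq2 (0.43, adjusted p = 0.0479). The 3 comparisons share groups, so they are not separate pieces of evidence.

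Igf2 (chromosome 7, 142650766 to 142666816, minus strand) was among the least abundant members, with 75 to 205 reads per library. It measured 2.30, 2.35 and 2.50 CPM in non-stressed saline, 2.93, 4.39 and 3.89 CPM in stressed saline, and 3.49, 2.68 and 2.50 CPM in SHNK. All stressed saline libraries were above all non-stressed ones, and the SHNK libraries overlapped with both groups. The log2 difference was 0.65 ± 0.21 for stressed saline against non-stressed saline (edgeR adjusted p = 0.228, unadjusted p = 0.00895) and -0.37 ± 0.21 for SHNK against stressed saline (edgeR adjusted p = 0.319). SHNK against non-stressed saline was 0.28 ± 0.21. In GENCODE the exons of Igf2 share 3596 bases with Gm49394, a gene model on the same strand, and 98 bases with the antisense gene Igf2os. The strand setting and the handling of shared reads are unknown here, so the Igf2 count may hold reads of these genes.

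The ratio of Igf1 to Igf2 CPM within a library sets the ligands side by side. It was 3.96, 4.71 and 4.69 in non-stressed saline, 2.85, 1.79 and 2.09 in stressed saline, and 3.53, 5.23 and 6.61 in SHNK. All stressed saline libraries were below all others. The ratio describes the same counts again and was not tested.

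**Figure D2:**
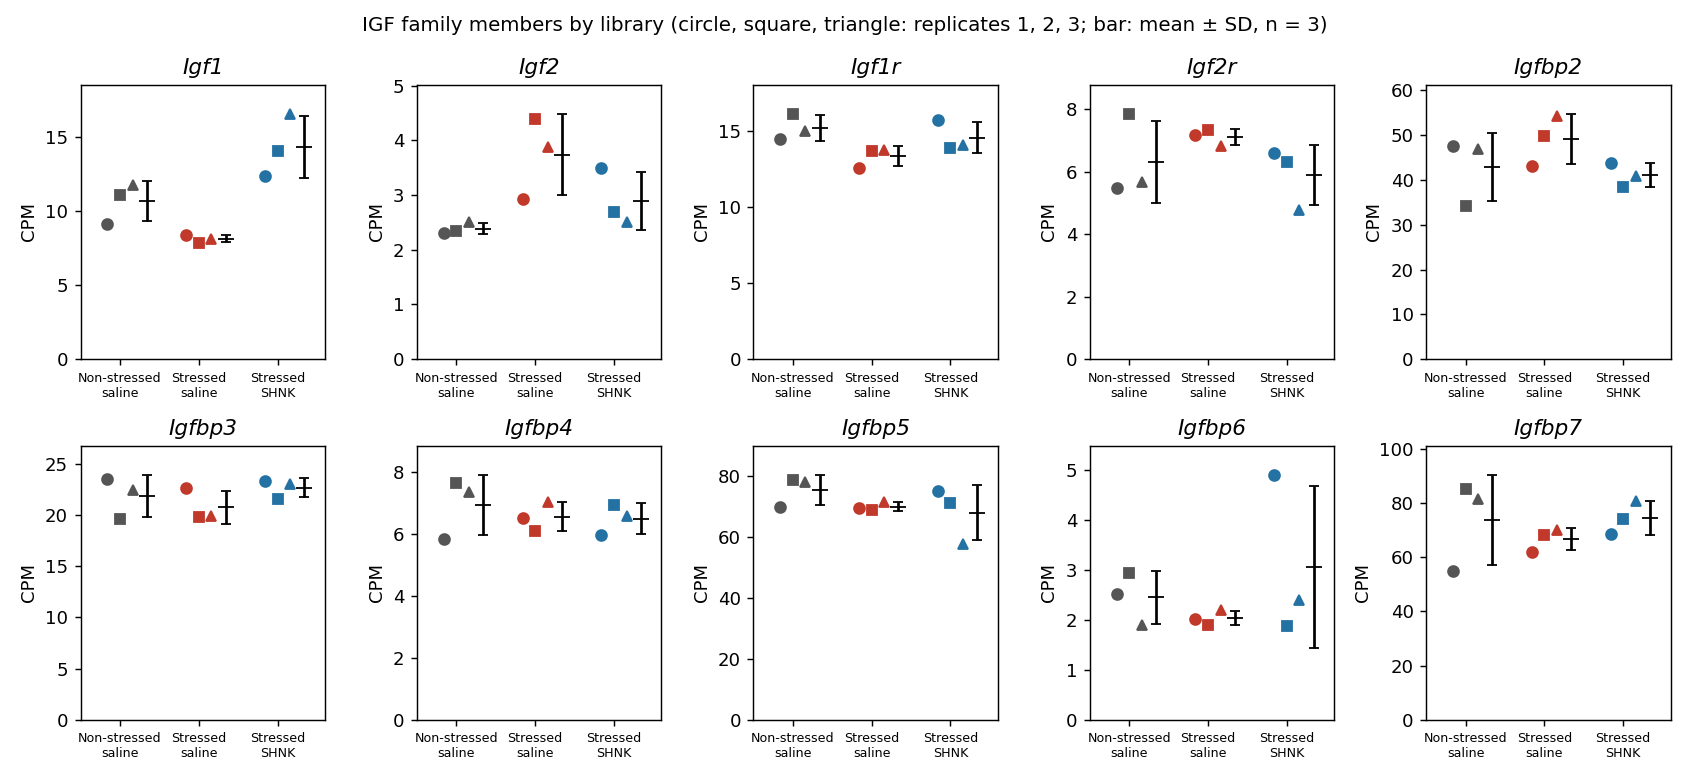
CPM of each of the 10 members by group, with replicates 1, 2 and 3 as circle, square and triangle and the mean ± SD (n = 3) as a bar; every axis starts at 0. Igf1 is lowest in stressed saline and highest in SHNK with no overlap, Igf2 is highest on average in stressed saline, and the 6 binding proteins overlap between all groups.

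The receptors differed little. Igf1r (chromosome 7, 67952827 to 68233668, plus strand) measured 14.4, 16.1 and 14.99 CPM in non-stressed saline, 12.5, 13.7 and 13.7 CPM in stressed saline, and 15.7, 13.8 and 14.0 CPM in SHNK. The stressed saline libraries lay below those of both other groups, by a small margin. The log2 differences were -0.19 ± 0.11 for stressed saline against non-stressed saline and 0.13 ± 0.11 for SHNK against stressed saline (edgeR adjusted p = 0.686 and 0.529). SHNK against non-stressed saline was -0.06 ± 0.11.

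Igf2r (chromosome 17, 12682406 to 12769664, minus strand) measured 5.46, 7.83 and 5.67 CPM in non-stressed saline, 7.15, 7.33 and 6.81 CPM in stressed saline, and 6.58, 6.30 and 4.78 CPM in SHNK. All SHNK libraries were below all stressed saline ones, and non-stressed saline replicate 2 was the highest of all 9. The difference of SHNK from stressed saline was -0.27 ± 0.18 on the log2 scale (edgeR adjusted p = 0.390). Stressed saline against non-stressed saline was 0.17 ± 0.18, and SHNK against non-stressed saline -0.09 ± 0.18. Airn, an antisense RNA that starts within Igf2r, shares no exon bases with it in GENCODE.

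Among the binding proteins, Igfbp2 came nearest to a difference. It measured 47.6, 34.2 and 46.9 CPM in non-stressed saline, 43.2, 49.8 and 54.3 CPM in stressed saline, and 43.7, 38.4 and 41.0 CPM in SHNK. The group ranges overlapped in every pair, stressed saline replicate 1 lying just below SHNK replicate 1. SHNK against stressed saline was -0.26 ± 0.13 on the log2 scale (edgeR adjusted p = 0.237, unadjusted p = 0.0591). Igfbp5 is the neighbour of Igfbp2 on chromosome 1, 5457 bases away and on the opposite strand. It measured 69.8, 78.7 and 78.0 CPM, 69.6, 68.9 and 71.7 CPM, and 75.2, 71.2 and 57.8 CPM in the same order of groups, and its log2 differences ran from -0.15 to -0.04. Igfbp2 was highest on average in stressed saline and Igfbp5 in non-stressed saline, and their differences were not compared by a test. For Igfbp2 the log2 difference was 0.19 ± 0.13 under stress and -0.06 ± 0.13 for SHNK against non-stressed saline.

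Igfbp6 (chromosome 15, 102144362 to 102149511) was set by 1 library. It measured 2.52, 2.94 and 1.89 CPM in non-stressed saline, 2.02, 1.91 and 2.20 CPM in stressed saline, and 4.90, 1.87 and 2.39 CPM in SHNK. SHNK replicate 1 was above all other libraries, while SHNK replicate 2 was the lowest of the 9 and SHNK replicate 3 lay within the range of non-stressed saline. The log2 difference of SHNK from stressed saline was 0.59 ± 0.31 (edgeR adjusted p = 0.284), and 0.06 without that library. SHNK against non-stressed saline was 0.32 ± 0.31 with it and -0.19 without it, and the difference under stress was -0.26 ± 0.32.

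The remaining binding proteins overlapped between all groups. Igfbp3 ran from 19.6 to 23.5 CPM over the 9 libraries, Igfbp4 from 5.85 to 7.64 CPM and Igfbp7 from 54.7 to 85.0 CPM, the lowest Igfbp7 value being non-stressed saline replicate 1. For SHNK against stressed saline their log2 differences were 0.13 ± 0.10, -0.01 ± 0.15 and 0.16 ± 0.14, and edgeR adjusted p ran from 0.520 to 0.975. Under stress they were -0.08 ± 0.10, -0.08 ± 0.15 and -0.14 ± 0.14, and for SHNK against non-stressed saline 0.05 ± 0.10, -0.09 ± 0.15 and 0.02 ± 0.14. In GENCODE, Igfbp7 shares 85 exon bases with Polr2b on the opposite strand.

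**Figure D3:**
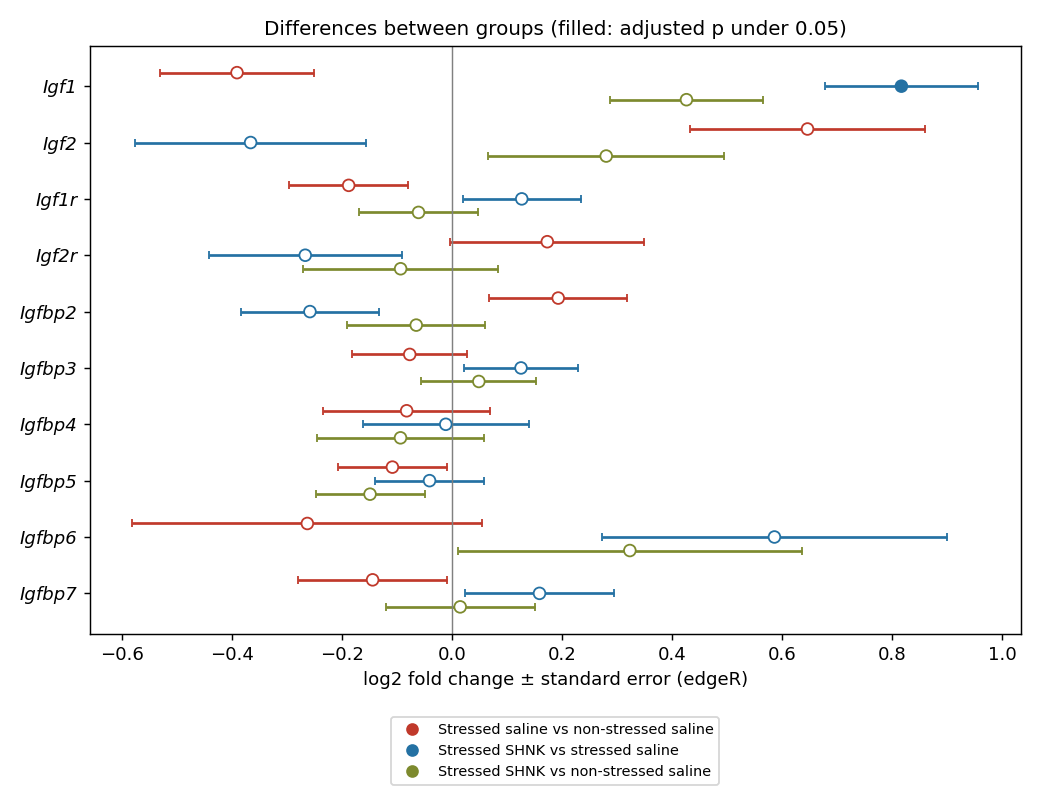
Log2 fold change ± standard error (edgeR) of each member in the 3 comparisons; filled points have an adjusted p under 0.05. The only filled point is Igf1 for SHNK against stressed saline, at 0.82, and the bars of most binding proteins reach or lie near 0.

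Counted over the family, 1 of 10 members was called for SHNK against stressed saline, a higher one, where edgeR called 6.41% of all tested genes (2.45% higher and 3.96% lower). Nothing is read from that share, because the members were proposed with this comparison known. At unadjusted p under 0.05 it was also 1 of 10, beside 23.3% of all genes. Under stress edgeR called 0 of 10, beside 1.17% of all genes (1.15% higher and 0.0165% lower). Neither DESeq2 nor limma voom called a member there. DESeq2 called 2.65% of the 17837 genes to which it gave an adjusted p, and limma voom 0.561% of all genes. At unadjusted p under 0.05 in edgeR there were 2, Igf1 and Igf2, beside 9.45% of all genes. For SHNK against non-stressed saline edgeR called 0 of 10, beside 0.0055% of all genes. DESeq2 called 1 there, Igf1, beside 7.5% of the 13252 genes to which it gave an adjusted p, and limma voom called 0. At unadjusted p under 0.05 in edgeR there was 1, again Igf1, beside 18.3% of all genes.

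Members whose group ranges did not overlap were counted as well. Under stress 1 member was higher (7.36% of all genes) and 2 were lower (5.53%), together 3 of 10 beside 12.9%. With SHNK against stressed saline 2 were higher (14.4%) and 1 was lower (15.9%), beside 30.4% in either direction. With SHNK against non-stressed saline 1 was higher (9.83%) and 0 were lower (11.5%), beside 21.3%. The median log2 fold change of the members was -0.10, 0.06 and -0.02 in the 3 comparisons, against -0.02, -0.01 and -0.00 over all tested genes.

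Several marker lists moved with these members, and their part in the results was not tested. Igf2 was highest in stressed saline replicates 2 and 3, the libraries with the most ependyma and cilia signal (383 and 304 summed CPM). The choroid plexus list of 18 genes summed to 175 to 180 CPM in non-stressed saline, 208 to 262 CPM in stressed saline and 194 to 261 CPM in SHNK, with 4 genes up under stress and 4 down with SHNK. Its most abundant genes weighed heavily in that sum. Enpp2 had means of 103, 114 and 116 CPM in the same order of groups, and Ttr 17.9, 29.6 and 43.6 CPM. The list's median log2 fold change was 0.81 under stress and -0.65 for SHNK against stressed saline, so the sum and the median differ in SHNK. Beside Igf2, the sum was 208 CPM in stressed saline replicate 3 (Igf2 at 3.89 CPM) and 261 CPM in SHNK replicate 1 (Igf2 at 3.49 CPM). The least abundant gene of the list by the mean over the 9 libraries was Kcne2, a potassium channel subunit, at 0.282 CPM. The table holds no count below 1, so no marker in it could be at 0. Of 22 genes of meningeal and perivascular fibroblasts, 0 passed in edgeR in any comparison. That list summed to 64.0 to 78.3 CPM, 72.0 to 86.7 CPM and 62.5 to 96.3 CPM in the same order of groups. Its highest library by the sum was SHNK replicate 1, the library with the high Igfbp6. Not all genes of the list were highest there. Serpinf1, its most abundant gene, was highest in stressed saline replicate 3 (20.6 CPM, against 17.4 CPM in SHNK replicate 1). Slc13a3, the next, was highest in non-stressed saline replicate 3 (14.2 CPM, against 8.64 CPM in SHNK replicate 1).

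The microglia list was set beside Igf1, since microglia can make IGF1, but the cells that made it here were not identified. The 20 microglia genes summed to 487 to 541 CPM in non-stressed saline, 478 to 519 CPM in stressed saline and 483 to 537 CPM in SHNK. The 3 ranges overlapped, 0 of 20 passed in edgeR for SHNK against stressed saline, and the list's median log2 fold change was 0.02. In the blood list, 4 of 5 genes rose with SHNK against stressed saline. It summed to 497 to 630 CPM in non-stressed saline, 372 to 516 CPM in stressed saline and 586 to 676 CPM in SHNK. The non-stressed range overlapped with both other groups, and a link of this list to Igf1 was not tested. The 19 mural cell genes summed to 527 to 541 CPM in non-stressed saline, 483 to 529 CPM in stressed saline and 579 to 592 CPM in SHNK, so SHNK lay above stressed saline without overlap. Most of that sum was Rgs4, a signalling regulator that neurons also express, which rose with SHNK from 277 to 278 CPM to 339 to 382 CPM. Cnn1, a smooth muscle protein, fell, and the list's median log2 fold change was -0.07. Both were named after their values were seen. The 20 endothelium genes summed to 619 to 743 CPM, 668 to 687 CPM and 621 to 670 CPM, with 1 lower with SHNK against stressed saline. Of 20 astrocyte genes 9 fell in that comparison, and the list summed to 6790 to 7145 CPM, 6100 to 7771 CPM and 5355 to 5759 CPM. The list of glutamatergic aPVT and midline neurons summed to 4104 to 4497 CPM, 3755 to 4350 CPM and 4078 to 4468 CPM, with 2 of 15 genes up.

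**Figure D4:**
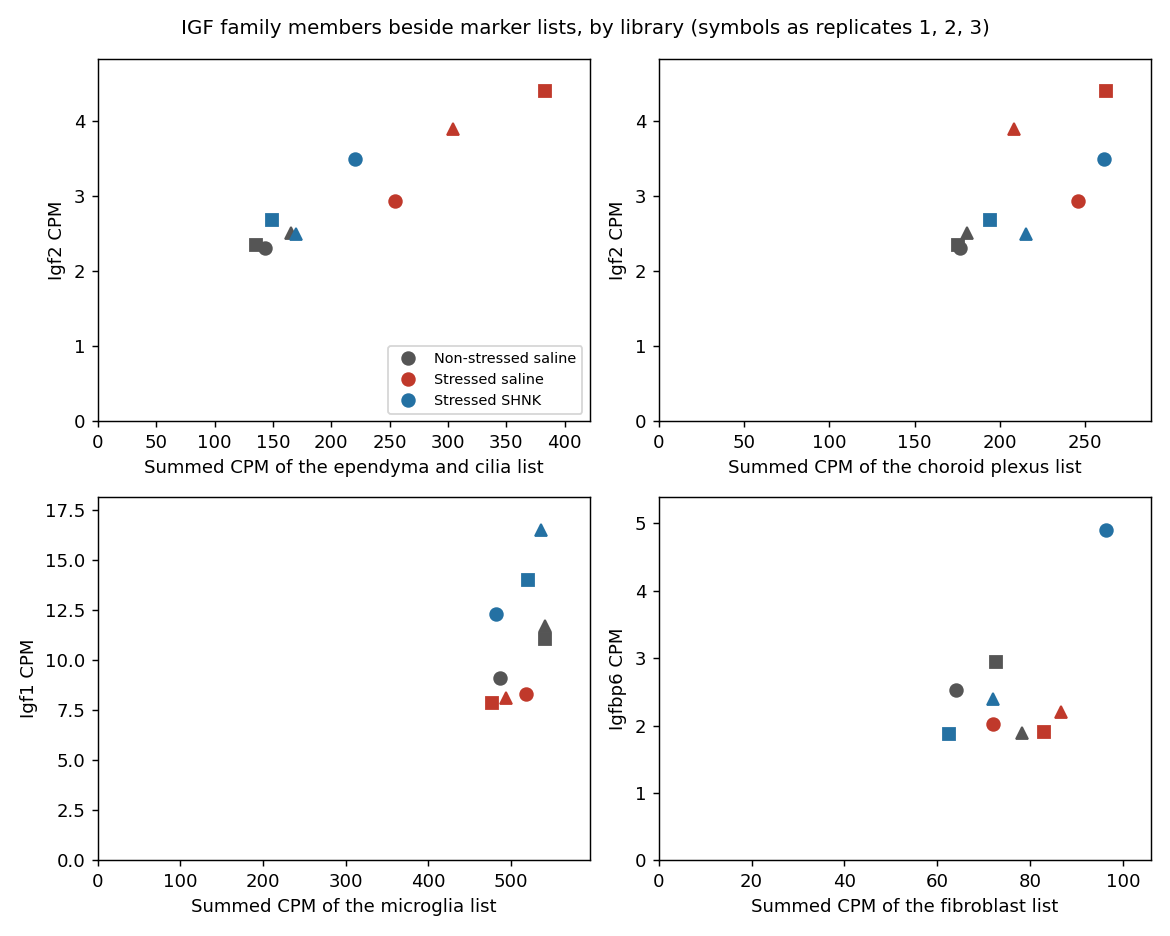
CPM of Igf2, Igf1 and Igfbp6 against the summed CPM of marker lists (ependyma and cilia, choroid plexus, microglia and fibroblast), with 1 point per library and replicates 1, 2 and 3 as circle, square and triangle. Igf2 is highest in stressed saline replicates 2 and 3, which also have the most ependyma signal. Stressed saline replicate 3 has more Igf2 than SHNK replicate 1 but a lower choroid plexus sum. The microglia sums overlap between groups, and the cells that made Igf1 were not identified. SHNK replicate 1 is highest in both Igfbp6 and the fibroblast sum. Links between members and lists were not tested.

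The genes whose log2 CPM followed a ligand most closely over the 9 libraries were ranked by Pearson's r among 12553 named genes, as a description of libraries that share the same 3 groups. For Igf1 they were Otub1, a deubiquitinase (0.983), March5, a mitochondrial ubiquitin ligase (0.982), Tmem14a (0.978), Ogfrl1 (0.975) and Rnf128, a ubiquitin ligase (0.970). All 5 shared its order of groups with smaller differences, from 0.23 to 0.52 on the log2 scale for SHNK against stressed saline. For Igf2 they were Fam183b, a gene on the ependyma and cilia list (0.967), Plac9b (0.956), Morn5 (0.952), Nmb, the neuromedin B precursor (0.950), and the myoglobin gene Mb (0.950). Their differences under stress ran from 0.46 to 1.40.

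The rest of the pathway was read from 4 lists, on which 56 of 70 genes were in the count table and tested. Igfals, Igfbp1, Pappa, Pappa2, H19 and Igf2bp2 are not analysed here. Under stress, 0 of the 56 passed in edgeR (4 at unadjusted p under 0.05, beside 9.45% of all genes), and DESeq2 and limma voom called 0. With SHNK against stressed saline, 4 fell and 0 rose, beside 3.96% of all genes lower and 2.45% higher. DESeq2 called 7 lower of the 52 to which it gave an adjusted p. Of the 15720 genes to which it gave one, it called 7.18% lower and 12.8% in either direction. The 7 lower genes of 56 in limma voom stood beside 7.68% of all genes lower and 13.1% in either direction. SHNK against non-stressed saline gave 0 in edgeR, with 16 at unadjusted p under 0.05 beside 18.3% of all genes. There DESeq2 called 6 of 48 (1 higher and 5 lower), beside 7.5% of the 13252 genes to which it gave an adjusted p, and limma voom called 0.

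The 4 genes that fell with SHNK were parts of receptor signalling and its surroundings. Gab1, an adaptor that links receptor tyrosine kinases to PI3K, measured 21.7, 18.0 and 19.9 CPM in stressed saline and 15.3, 12.6 and 12.1 CPM in SHNK. It fell by 0.58 ± 0.12 on the log2 scale (edgeR adjusted p = 0.0146). Akt2, a kinase downstream of PI3K, fell by 0.43 ± 0.11, from 37.1 to 38.8 CPM in stressed saline to 25.8 to 31.2 CPM in SHNK. Foxo1, a transcription factor that AKT keeps out of the nucleus, fell by 0.41 ± 0.10, from 32.1 to 38.4 CPM to 23.2 to 28.6 CPM (edgeR adjusted p = 0.0316 for each). Zbtb20, a zinc finger repressor that is also abundant in astrocytes, fell by 0.58 ± 0.14 (edgeR adjusted p = 0.0240), in the libraries where 9 of 20 astrocyte genes fell. None of these calls held in every fit that left out 1 library. The count was 0 without stressed saline replicate 1, SHNK replicate 2 or SHNK replicate 3, and 2 without stressed saline replicate 2.

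By role, the list of receptor signalling held 3 of those 4 genes among 36, with a median log2 fold change of -0.06 for SHNK against stressed saline. The insulin receptor Insr (-0.01 ± 0.16) and the receptor substrates Irs1 (-0.23 ± 0.14) and Irs2 (-0.09 ± 0.094) did not pass in that comparison, nor did Grb10, an adaptor that restrains insulin and IGF1 receptor signalling (-0.19 ± 0.13; edgeR adjusted p from 0.350 to 0.973 for the 4). Among the 6 genes for proteases of binding proteins and their inhibitors 0 passed in edgeR for the same comparison (1 at unadjusted p under 0.05, beside 23.3% of all genes). Htra1, a secreted protease, measured 128 to 173 CPM in stressed saline and 131 to 146 CPM in SHNK (-0.16 ± 0.10). The stanniocalcins, which block the IGFBP protease PAPP-A, were at 3.01 to 6.34 CPM (Stc1) and 0.150 to 0.310 CPM (Stc2) in stressed saline and did not pass.

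Of 5 relatives that carry an IGFBP domain 0 passed in edgeR for SHNK against stressed saline (2 at unadjusted p under 0.05, beside 23.3% of all genes). Ccn3, a matrix-associated member chosen here after its values were seen, measured 8.96 CPM in SHNK replicate 1 and 1.42 to 3.71 CPM in the other 8 libraries, the same library that was high in Igfbp6. Of 9 genes of the growth hormone axis and IGF2 regulation, Zbtb20 was the only one past the threshold in that comparison.

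**Figure D5:**
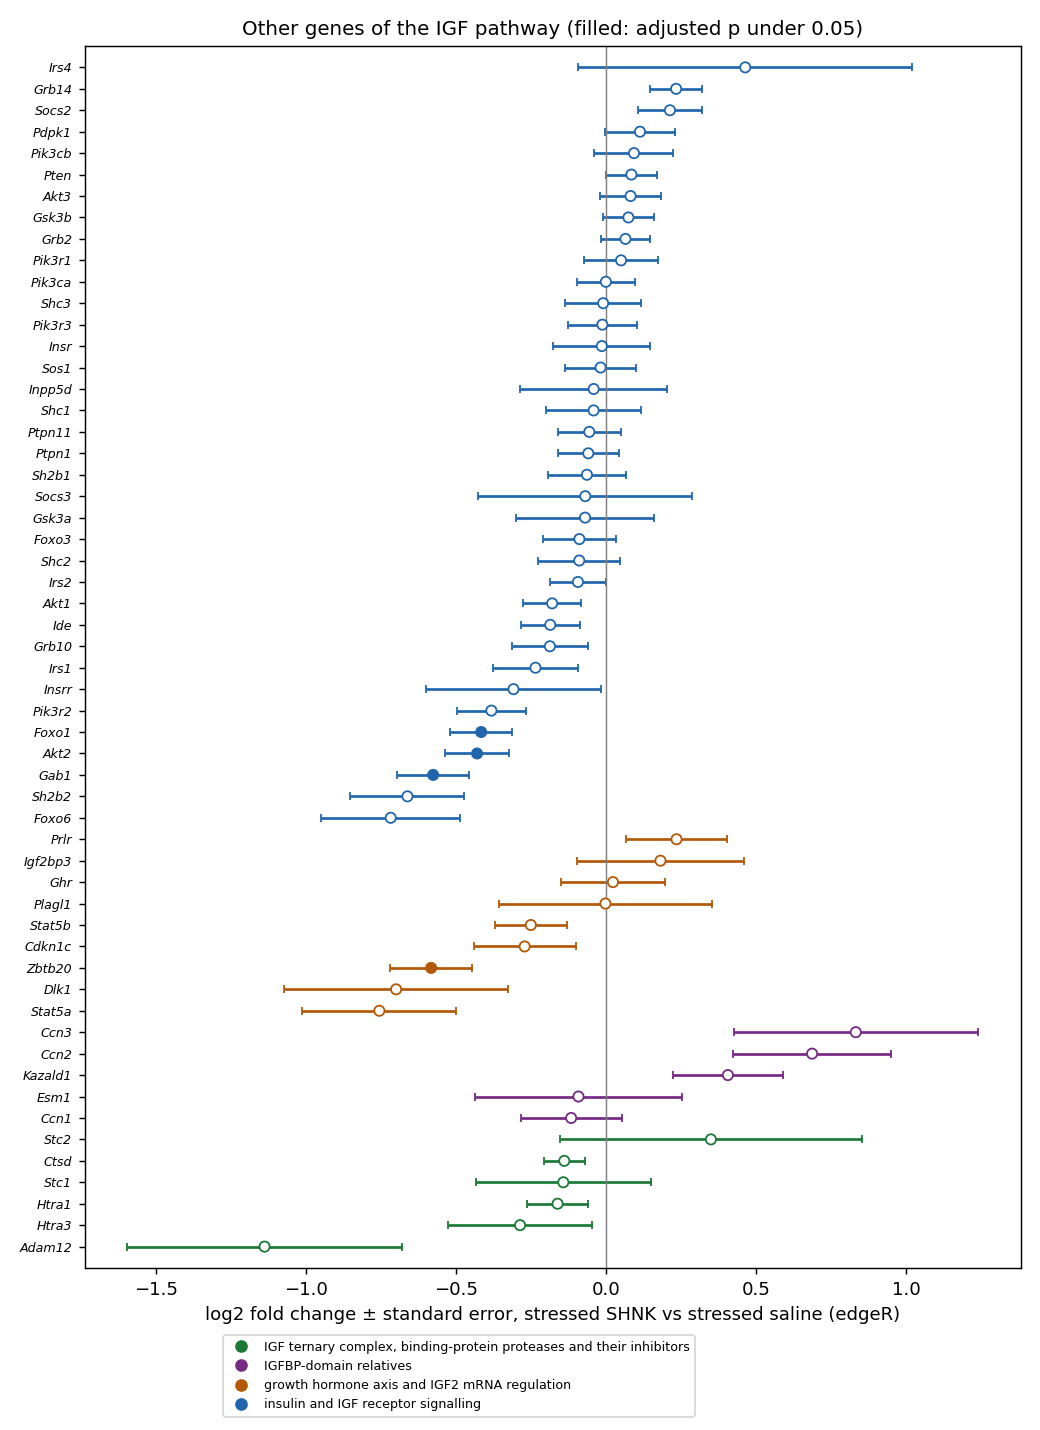
Log2 fold change ± standard error (edgeR) for SHNK against stressed saline of the 56 other pathway genes, coloured by list; filled points have an adjusted p under 0.05. The filled points are Gab1, Akt2, Foxo1 and Zbtb20, all below 0, and Irs1, Irs2, Insr and Grb10 are open.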

How the data were processed

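The authors deposited raw counts for 9 libraries, 1 whole number per symbol and library, with no normalization; the lowest count is 1. Per the labels' protocols, 100 ng of total RNA entered each library (SMARTer Ultra low RNA and TruSeq kits). The tools named are Trimmomatic 0.38, StringTie and HISAT2, and the builds mm10 and GRCm38, per the submitters' processing notes. Tool roles, annotation and strand setting: not given in the sources used here. Groups came from the sample titles. Genes were kept with filterByExpr (minimum count 10, minimum total 15), TMM-scaled and tested by quasi-likelihood, with all 3 groups in the fit (edgeR 4.0.16, R 4.3.3; common biological coefficient of variation 0.132), with Benjamini-Hochberg adjustment across 18194 genes and a threshold of 0.05. The script was tested on simulated counts. Alternatives were DESeq2 1.42.0, limma 3.58.1 voom, other scalings and filters, a replicate block, 2-group fits and leaving out each library. Coordinates, lengths and overlaps are from GENCODE M21 (GRCm38). All 10 members were named in every comparison; 12 pathway genes fixed by name, pathway genes past the threshold and the 5 closest genes to each ligand by r (mean log2 CPM of at least 1, prior count 2) were named too. The members and lists were chosen with earlier results of these data known.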

Additional observations from a re-analysis of the deposited data

How the results depend on the processing

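The call of Igf1 for SHNK against stressed saline held in every alternative fit run, and no other member was called in any of them except Igf1 against non-stressed saline in DESeq2 (count of members 1, against 0 in edgeR). Counts over all genes moved more. Under stress edgeR called 213, DESeq2 472 and limma voom 102, and 40 to 306 with 1 library left out. SHNK against stressed saline gave 1167, 2005 by DESeq2, 2377 by limma voom and 176 to 1385 with 1 library left out. SHNK against non-stressed saline gave 1 gene, Mmp14, named here after its value was seen, and 994 by DESeq2, 0 with upper-quartile scaling, with no filter or with 1 CPM in at least 3 libraries, 6 with the replicate block and 9 in the 2-group fit. With 1 library left out it gave 0 to 749, the highest without non-stressed saline replicate 2. Pathway genes called were 4 for SHNK against stressed saline, 7 by DESeq2, 7 by limma voom and 0 to 6 with 1 library left out. Against non-stressed saline they were 0, 6 by DESeq2 and 0 to 3 with 1 library left out, and under stress 0 to 1.

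Replicate numbers are shared between groups. Over all tested genes, deviations of same-numbered libraries from their group means were weakly correlated (r from -0.10 to 0.11). Libraries with different numbers were not compared in this way, so whether same-numbered libraries share a batch was not tested. With the replicate block, genes called were 177 under stress and 878 with SHNK against stressed saline, and members called stayed at 0 and 1. Signs changed for small differences that did not pass. With limma voom, Igfbp4 was 0.037 for SHNK against stressed saline, and Igf2r was 0.0056 and Stc2 -0.022 for SHNK against non-stressed saline. With the replicate block, Insr was 0.0055 for SHNK against stressed saline. With 1 library left out, the sign changed in 11 of 270 fits of members, to values between -0.19 and 0.086. The ranges of the members concerned were, for SHNK against stressed saline, -0.062 to 0.050 for Igfbp4 and -0.12 to 0.063 for Igfbp5. For SHNK against non-stressed saline they were -0.19 to 0.086 for Igf2r, -0.20 to 0.016 for Igfbp2, -0.022 to 0.11 for Igfbp3, -0.19 to 0.58 for Igfbp6 and -0.16 to 0.13 for Igfbp7. Among pathway genes under stress, they were -0.27 to 0.027 for Insr, -0.035 to 0.093 for Irs1, -0.47 to 0.20 for Stc2, -0.087 to 0.12 for Grb10, -0.027 to 0.15 for Akt2 and -0.012 to 0.12 for Foxo1. For SHNK against stressed saline they were -0.15 to 0.066 for Insr, -0.40 to 0.052 for Stc1 and -0.20 to 0.61 for Stc2. For SHNK against non-stressed saline they were -0.29 to 0.014 for Insr, -0.012 to 0.55 for Stc1 and -0.42 to 0.55 for Stc2. For these changes the cause was not tested. Igf2 and Igfbp6 had as few as 75 and 77 reads in a library; how much of their error is counting error was not tested.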
